A study of Mus musculus with 59 samples.

Results

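The 9 genes described here make, remodel, break down or carry phosphatidylcholine, and they are 9 of the 18193 genes measured in mouse liver. They are the choline kinases Chka and Chkb, the CDP-choline forming enzyme Pcyt1a, the phosphotransferase Cept1, the methyltransferase Pemt, the acyltransferase Lpcat3, the phosphodiesterase Gdpd3 and the transfer proteins Pctp and Pltp. They were chosen by name, and each of the 16 probe sets annotated to 1 of these symbols alone was kept. Pctp, Pltp, Gdpd3 and Chka entered the list because their levels in knock-in livers were already known, so their knock-in values are given as a description with no test. The other 5 were added for their place in the pathway, though with earlier results of these data known, and were tested in every comparison.

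Total liver RNA came from 4-week-old mice of a mixed FVB/NT, 129S1/Svlmj and C57BL/6NT background, extracted with Trizol, labelled as biotin cRNA and hybridized to Affymetrix mouse arrays. E2f1 and E2f3 encode E2F transcription factors, which bind promoters of cell cycle genes, and E2f3a and E2f3b are the 2 isoforms of E2f3. There were 12 arrays of wild type livers (wt), 10 of E2f3a knock-out livers (3aKO), 10 of E2F1 knock-in livers (1KI) and 5 of E2F3b knock-in livers (3bKI), while the labels used here do not name the locus of either knock-in. The authors normalized wt, 3aKO and 1KI together and then the same wt and 3aKO arrays with 3bKI, so 1KI and 3bKI are each set against wt and 3aKO but not against each other, and these comparisons share arrays.

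Phosphatidylcholine is the main phospholipid of cell membranes and of the surface of lipoproteins. Most of it is made by the CDP-choline pathway, in which choline is phosphorylated, activated to CDP-choline and joined to diacylglycerol. The liver has a further route, in which phosphatidylethanolamine is methylated. It also secretes much phosphatidylcholine into bile and in lipoproteins, and its acyl chains are exchanged after synthesis.

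All 9 genes matched 14 promoter windows of RefSeq (GRCm38.p6), each running from 250 bases before to 50 bases after a gene start. The windows of Chka and Pcyt1a are shown because they hold a searched motif. Those of Chkb and Pctp are shown because all their 1KI arrays lay above wt at the probe set with the highest mean. That of Gdpd3 is shown because it had the largest change of the 9. The windows are printed 5' to 3' on the gene's own strand, in lower case. Capitals mark a motif that was searched for on both strands, which is an E2F motif in Chka and a sterol element in Pcyt1a. They lie at chr19:3851523-3851822 on the plus strand (Chka), chr15:89429878-89430177 on the minus strand (Chkb), chr16:32430671-32430970 on the plus strand (Pcyt1a, the first of its windows), chr11:90002845-90003144 on the minus strand (Pctp) and chr7:126766164-126766463 on the plus strand (Gdpd3).
Chka: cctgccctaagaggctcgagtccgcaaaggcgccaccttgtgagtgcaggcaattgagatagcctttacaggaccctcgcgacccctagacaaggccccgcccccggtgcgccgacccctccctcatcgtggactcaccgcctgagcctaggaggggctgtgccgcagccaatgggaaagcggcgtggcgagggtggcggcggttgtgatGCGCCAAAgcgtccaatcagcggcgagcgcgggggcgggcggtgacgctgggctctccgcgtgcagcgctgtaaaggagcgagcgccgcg
Chkb: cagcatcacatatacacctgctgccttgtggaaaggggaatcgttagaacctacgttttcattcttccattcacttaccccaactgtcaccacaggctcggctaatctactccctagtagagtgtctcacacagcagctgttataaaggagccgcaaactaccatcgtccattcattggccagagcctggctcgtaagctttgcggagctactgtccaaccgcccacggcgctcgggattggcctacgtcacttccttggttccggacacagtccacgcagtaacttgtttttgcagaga
Pcyt1a: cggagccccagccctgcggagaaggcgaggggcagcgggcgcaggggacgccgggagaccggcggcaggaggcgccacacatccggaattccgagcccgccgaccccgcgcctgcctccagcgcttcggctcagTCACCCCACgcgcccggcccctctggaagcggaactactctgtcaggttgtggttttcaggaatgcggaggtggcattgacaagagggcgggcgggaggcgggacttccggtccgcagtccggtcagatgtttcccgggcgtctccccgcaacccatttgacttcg
Pctp: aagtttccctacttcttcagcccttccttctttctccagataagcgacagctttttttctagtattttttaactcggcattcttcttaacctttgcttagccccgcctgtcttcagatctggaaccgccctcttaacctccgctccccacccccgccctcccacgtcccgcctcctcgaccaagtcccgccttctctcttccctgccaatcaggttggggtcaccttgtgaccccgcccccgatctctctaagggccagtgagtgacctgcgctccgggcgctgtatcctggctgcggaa
Gdpd3: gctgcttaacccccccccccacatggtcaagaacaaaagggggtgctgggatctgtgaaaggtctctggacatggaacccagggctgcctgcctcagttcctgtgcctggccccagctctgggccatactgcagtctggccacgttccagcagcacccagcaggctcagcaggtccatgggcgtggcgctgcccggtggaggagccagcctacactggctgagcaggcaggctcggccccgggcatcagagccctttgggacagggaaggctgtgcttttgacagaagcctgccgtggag
The E2F motif TTTGGCGC stood in the Chka window as its reverse complement, starting 40 bases before the gene start, and 0.514% of all 32851 promoter windows held it. The other E2F motif searched, TTTCGCGC, was in 0 of the 14 windows and in 0.323% of all. The sterol element TCACCCCAC, a motif known for binding SREBP proteins, stood 116 bases before the start in the Pcyt1a window and again in a second, overlapping Pcyt1a window, against 0.551% of all. DR4, a direct repeat bound by nuclear receptors, was in none of the 14 and in 0.0152% of all. Such matches are letters in a window, and no binding was measured.

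Values are log2 expression throughout, so a change of 1 is a doubling, and errors of changes are limma's standard errors. Probe sets differ in their response, so levels are compared for a gene between samples and not between genes. The livers had the marker levels of hepatocytes, with 9 hepatocyte markers averaging between 12.4 and 15.0 in every genotype, where array medians lay between 5.83 and 6.00. 1KI array 6 stood apart, with a median correlation with the other arrays of 0.964 where the next lowest array had 0.986, and a 3' minus 5' difference over Gapdh and Actb probe sets, which grows as RNA breaks down, of 1.75 against a median of 0.50 in its group. Hybridization controls, spiked in after labelling, were brighter in all knock-in arrays (means of 11.3 in 1KI and 11.6 in 3bKI) and in wt arrays 1 and 2 than in the other 10 wt and all 3aKO arrays (means of 10.2 each). Poly-A controls, added to the RNA, were at 13.8 in 3bKI against 9.04 in wt. Every 3bKI array lay above every wt and 3aKO array in these controls. Every 3bKI array also lay below them in the 3' minus 5' difference, at 0.275 to 0.36 against 0.475 or more. Genotype and these measures therefore cannot be told apart in 3bKI. Wt arrays 1 and 2 had poly-A controls at 9.695 and 9.57, so a block on the hybridization controls does not cover this difference. Blocking on the level of the hybridization controls compares knock-in arrays with wt arrays 1 and 2, and such values are given for part of the changes. Xist, a female marker, was high in 5 of 12 wt, 5 of 10 3aKO, 5 of 10 1KI and 2 of 5 3bKI arrays, and Y-linked genes were high in the rest. Wt arrays 1 and 2 were both Y-linked, so the block sets knock-in arrays of both sexes against wt arrays of 1 sex.

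**Figure D1:**
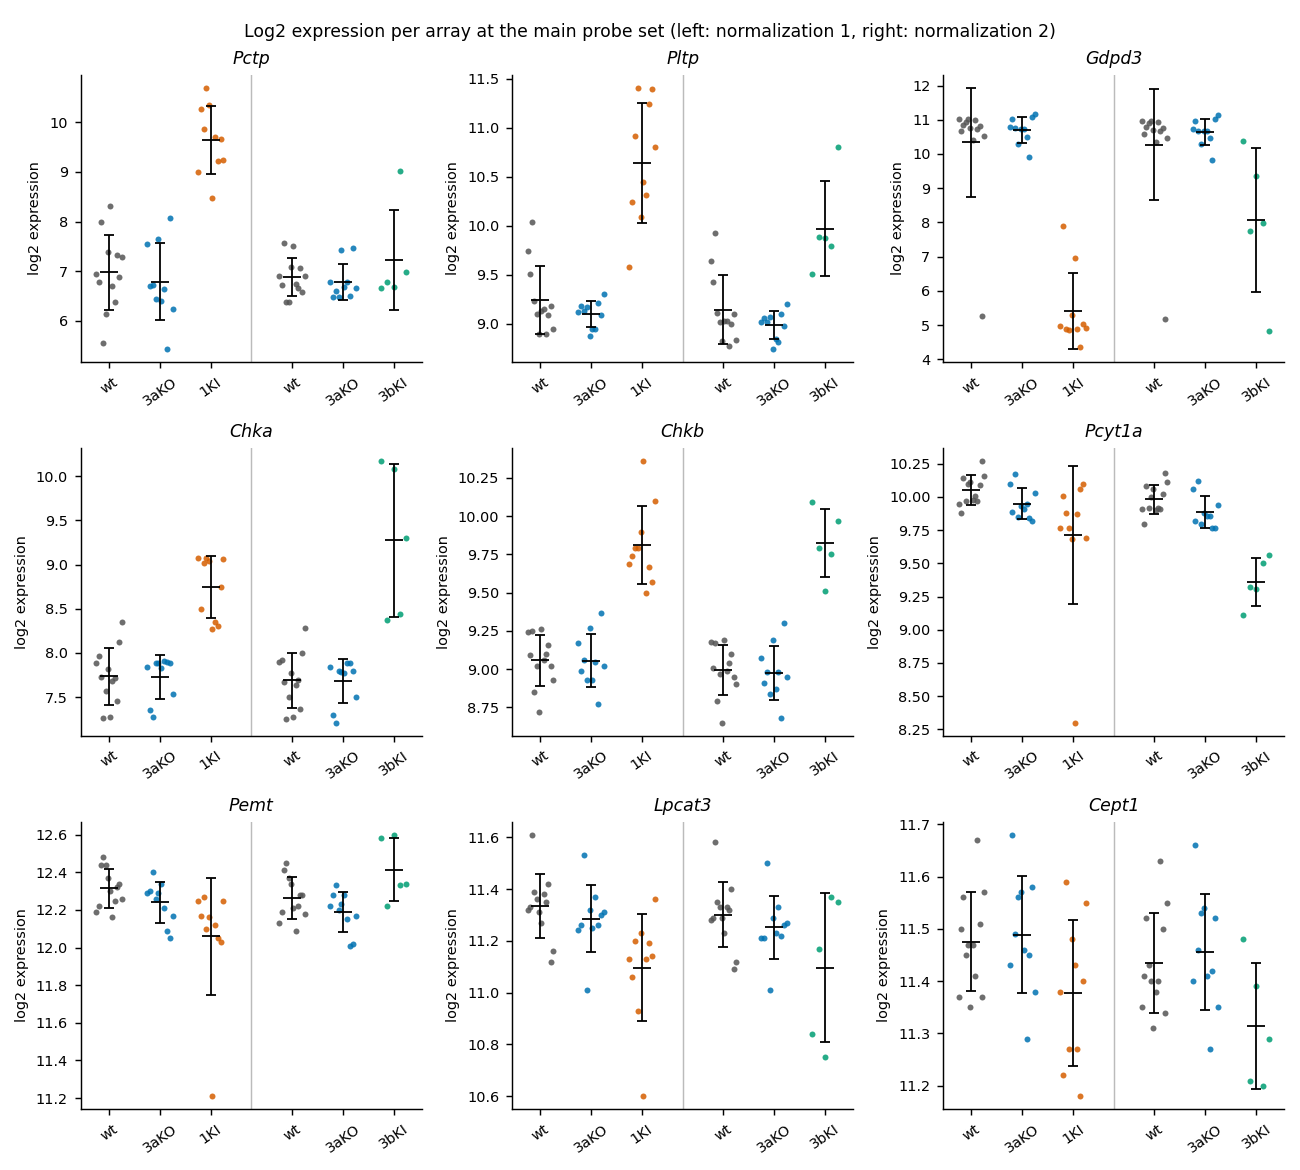
Log2 expression on the vertical axis of the 9 genes in every array at the main probe set, with normalization 1 left and normalization 2 right of the grey line. Points are arrays in replicate order and bars are the mean and SD. The 1KI arrays lie above all wt arrays for Pctp and Chkb, and the Gdpd3 panel holds 1 wt array at 5.28.

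Without E2f3a, none of the 9 genes passed the test. In 3aKO against wt the share of all genes called was 0.176%, and the 9 changes lay between -0.19 for Pctp and 0.36 for Gdpd3. The smallest adjusted p among them was 0.76 (limma, Benjamini-Hochberg over all genes), and 0 of 9 were below 0.05 unadjusted, where 11.9% of all genes were. Of all genes 0.110% were called upwards and 0.0660% downwards. The Gdpd3 value rested on wt array 11 and was -0.10 without it. No member's groups lay apart, as was so for 0.0110% of all genes, 0.00550% in each direction.

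The choline kinases, which start the CDP-choline pathway by phosphorylating choline, were higher in both knock-ins. Chkb is the isoform best known from muscle. It ranged from 8.72 through a median of 9.08 to 9.26 in the 12 wt arrays, from 8.77 through 9.04 to 9.37 in 3aKO and from 9.50 through 9.77 to 10.36 in 1KI. In the second normalization wt arrays ran from 8.65 to 9.19, and the 3bKI arrays 1 to 5 were at 10.09, 9.79, 9.51, 9.75 and 9.97. Every knock-in array therefore lay above every wt and every 3aKO array.

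Chkb rose in all 4 knock-in comparisons. The change was 0.75 ± 0.08 in 1KI against wt (1.68-fold, adjusted p 4e-08) and 0.83 ± 0.09 in 3bKI against wt (1.77-fold, adjusted p 1.1e-07). It was 0.76 ± 0.09 in 1KI against 3aKO (adjusted p 5.2e-08) and 0.85 ± 0.10 in 3bKI against 3aKO (adjusted p 7.6e-08). Blocked on the hybridization control level it was 0.65 ± 0.15 (adjusted p 0.012) in 1KI and 0.73 ± 0.15 (adjusted p 0.0024) in 3bKI against wt. In 3bKI the change against wt was 0.85 ± 0.15 in Xist-high and 0.81 ± 0.12 in Y-linked arrays, with a difference of 0.03 ± 0.19.

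Of the 5 genes tested, 1 rose and 3 fell in 1KI against wt, where 27.6% of all genes were called, 10.2% upwards and 17.5% downwards. In 3bKI against wt, where 29.2% were called (13.4% upwards, 15.9% downwards), 1 rose and 1 fell. In 1KI against 3aKO, with 31.0% called (11.9% upwards, 19.0% downwards), 1 rose and 1 fell. In 3bKI against 3aKO, with 34.2% called (16.5% upwards, 17.7% downwards), 2 rose and 1 fell. The median change of the 9 genes was -0.10 in 1KI and 0.15 in 3bKI against wt, beside -0.05 and 0.00 over all genes. Pctp, Pltp, Gdpd3 and Chka, chosen on their knock-in values, are part of this median, so nothing is read from it.

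Separation of all arrays of 2 genotypes, counted at the main probe set of each gene, was rarer. Among the 9 genes it held for 2 in 1KI against wt (Pctp and Chkb, both higher), where it held for 1.39% of all genes, 0.676% upwards and 0.709% downwards. It held for 3 in 3bKI against wt (Chka and Chkb higher, Pcyt1a lower), where it held for 7.18%, 2.70% upwards and 4.47% downwards. Against 3aKO it held for 5 in 1KI, 4 higher and Gdpd3 lower, where it held for 4.04% of all genes, 2.20% upwards and 1.84% downwards. It held for 4 in 3bKI, 3 higher and 1 lower, where it held for 12.2%, 5.41% upwards and 6.74% downwards. Pctp, Pltp, Gdpd3 and Chka were chosen for such differences, so nothing is read from these counts.

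Chka, the kinase isoform often raised in tumours, ranged from 7.26 through 7.73 to 8.35 in wt, from 7.27 through 7.86 to 7.91 in 3aKO and from 8.27 through 8.89 to 9.07 in 1KI. In the second normalization wt ran from 7.25 through 7.68 to 8.28, and the 3bKI arrays were at 10.17, 8.37, 10.08, 8.44 and 9.30. At this main probe set 3 of the 10 1KI arrays lay at or below the highest wt array, while all 5 3bKI arrays lay above it. The other probe sets differed. At 1442277_at 5 of 10 1KI and 3 of 5 3bKI arrays lay above all wt arrays, and at 1453582_at 10 of 10 and 3 of 5. The change was 1.01 ± 0.13 in 1KI (2.01-fold) and 1.58 ± 0.21 in 3bKI (3.00-fold), each against wt. All 3 Chka probe sets were higher, by 1.01 to 1.23 in 1KI and by 1.56 to 1.78 in 3bKI. With the control level as a block the main probe set was higher by 0.82 ± 0.23 and 1.36 ± 0.34.

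The Chka level split the 3bKI arrays into the Xist-high and the others. Arrays 1 and 3, the Xist-high ones, were at 10.17 and 10.08, and the Y-linked arrays at 8.37, 8.44 and 9.30, while in wt the Xist-high arrays averaged 7.49 and the Y-linked arrays 7.83. These 2 arrays also had the brightest hybridization controls of the 5, at 11.77 and 11.95 against 11.23 to 11.55, and the lowest 3' minus 5' differences, at 0.28 and 0.275 against 0.31 to 0.36. With 5 arrays these measures and sex cannot be told apart. The change against wt was 2.63 ± 0.22 in Xist-high and 0.87 ± 0.18 in Y-linked arrays, a difference of 1.76 ± 0.29. In 1KI the changes were 1.41 ± 0.16 and 0.66 ± 0.15, a difference of 0.74 ± 0.22. These differences are a description, since Chka was chosen on its knock-in values.

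**Figure D2:**
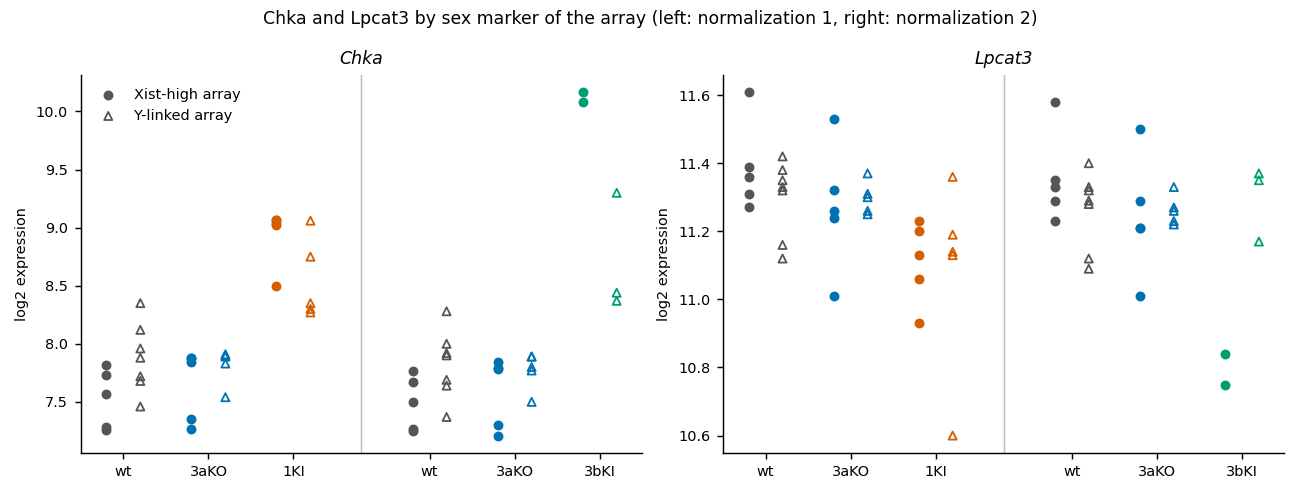
Log2 expression of Chka and Lpcat3 on the vertical axis, by genotype, with filled circles for Xist-high and open triangles for Y-linked arrays, and normalization 1 left and 2 right of the grey line. The 2 Xist-high 3bKI arrays are the highest for Chka, at 10.08 and 10.17, and the lowest of their normalization for Lpcat3, at 10.75 and 10.84.

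Pcyt1a, the rate-limiting enzyme of the pathway, which makes CDP-choline, was lower in 3bKI. At its main probe set wt ranged from 9.80 through 9.96 to 10.18 and 3aKO from 9.77 through 9.86 to 10.12, and the 3bKI arrays were at 9.11, 9.32, 9.31, 9.50 and 9.56. Every 3bKI array lay below every wt and 3aKO array. Pcyt1a fell by 0.62 ± 0.07 against wt (adjusted p 8.9e-08) and by 0.53 ± 0.07 against 3aKO (adjusted p 1.1e-06). With the control level as a block the change was -0.50 ± 0.11 against wt (adjusted p 0.0039) and -0.37 ± 0.12 against 3aKO, which did not pass (adjusted p 0.057). The call against 3aKO was also lost with the 3' minus 5' difference as a covariate.

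The Pcyt1a probe sets differed in the size of the change. Tested with every probe set as a feature, where 30.2% were called, 3 of the 4 fell in 3bKI against wt. Probe set 1421957_a_at changed by -0.59 ± 0.09 (adjusted p 8.4e-06) and 1450434_s_at by -0.22 ± 0.06 (adjusted p 0.0098). Probe set 1424453_at changed by -0.19 ± 0.08 against wt (adjusted p 0.073) and by 0.03 ± 0.08 against 3aKO, where 34.9% of probe sets were called. All 5 3bKI arrays lay below all wt arrays at 1421957_a_at, 1 of 5 at 1450434_s_at and 3 of 5 at 1424453_at.

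Pcyt1a was also lower in 1KI, with a value that depended on single arrays. The 1KI arrays ran from 8.30 through 9.82 to 10.10 at the main probe set, and wt from 9.88 through 10.05 to 10.27, so the groups overlapped. The lowest value was that of array 6, the array with the largest 3' minus 5' difference, and the next was 9.68. Pcyt1a fell by 0.34 ± 0.12 against wt (adjusted p 0.037), and by 0.18 ± 0.06 (adjusted p 0.016) without array 6. The call was lost with the control level as a block (-0.20 ± 0.22, adjusted p 0.66). It was also lost on leaving out wt array 3, 11 or 12 or 1KI array 5, with adjusted p between 0.051 and 0.058, in a fit of the 2 groups alone (adjusted p 0.079) and with equal array medians (adjusted p 0.067). Against 3aKO the change was -0.24 ± 0.13 and did not pass (adjusted p 0.17), and it was -0.08 ± 0.06 without array 6 (adjusted p 0.33). At probe set 1421957_a_at, where array 6 was not low (8.77), all 10 1KI arrays lay below the wt mean and the change was -0.21 ± 0.06 (adjusted p 0.012, with 29.2% of probe sets called).

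Cept1, which joins CDP-choline to diacylglycerol in the last step, did not pass in any of the 5 comparisons as fitted to all arrays. Wt arrays ran from 11.35 through 11.47 to 11.67 and 1KI arrays from 11.18 through 11.39 to 11.59. The 3bKI arrays were at 11.48, 11.21, 11.39, 11.20 and 11.29, and wt in that normalization at 11.31 to 11.63. The changes against wt were -0.10 ± 0.05 in 1KI and -0.12 ± 0.06 in 3bKI, and neither passed (adjusted p 0.16 and 0.14). Against 3aKO they were -0.11 ± 0.05 and -0.14 ± 0.06 (adjusted p 0.11 and 0.077). The first passed with array weights (-0.14, adjusted p 0.047). The second passed without 3aKO array 7 (-0.16, adjusted p 0.040) or 3bKI array 1 (-0.18, adjusted p 0.030), with equal array medians (adjusted p 0.035) and among genes above the median signal (adjusted p 0.048).

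Pemt, the liver enzyme that methylates phosphatidylethanolamine, was lower in 1KI. Wt ranged from 12.16 through 12.31 to 12.48, 3aKO from 12.05 through 12.28 to 12.40 and 1KI from 11.21 through 12.14 to 12.27, with array 6 again lowest. All 10 1KI arrays lay below the wt mean, though 5 were within the wt range. Pemt fell by 0.25 ± 0.08 (adjusted p 0.018), and by 0.16 ± 0.05 without array 6 (adjusted p 0.012). Against 3aKO the change was -0.18 ± 0.08 and did not pass (adjusted p 0.11), and it was -0.08 ± 0.05 without array 6 (adjusted p 0.20). With the control level as a block the change against wt was -0.14 ± 0.15 (adjusted p 0.63).

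In 3bKI the Pemt arrays were at 12.58, 12.22, 12.60, 12.33 and 12.34, where wt ran from 12.09 to 12.45 and 3aKO from 12.01 to 12.33. The highest, arrays 1 and 3, were the Xist-high ones that also stood apart in hybridization control level and 3' minus 5' difference. Xist-high and Y-linked arrays averaged 12.59 and 12.30 in 3bKI, 12.36 and 12.20 in wt, and 12.25 and 12.13 in 3aKO. Pemt rose by 0.23 ± 0.07 against 3aKO (adjusted p 0.011), while 0.15 ± 0.07 against wt did not pass (adjusted p 0.090), although it did without 3bKI array 2 (0.20, adjusted p 0.031). The RNA integrity measure moved with genotype here, at 0.31 in 3bKI against 0.56 in wt. With it as a covariate the 3bKI value against 3aKO was -0.062, and the call was lost without 3bKI array 1 or 3 (adjusted p 0.053 and 0.058). Blocking on control brightness removed the Pemt call against 3aKO too.

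Lpcat3, which puts an acyl chain back on lysophosphatidylcholine, was lower in 1KI. Wt ranged from 11.12 through 11.34 to 11.61 and 1KI from 10.60 through 11.14 to 11.36, and 3 of 10 1KI arrays lay below all wt arrays. Lpcat3 fell by 0.24 ± 0.07 against wt (adjusted p 0.0071) and by 0.19 ± 0.07 against 3aKO (adjusted p 0.036). Without array 6 the changes were -0.18 ± 0.06 (adjusted p 0.014) and -0.13 ± 0.06 (adjusted p 0.080), and the latter call was also lost without 3aKO array 3, 5 or 7 or 1KI array 2 or 4 (adjusted p 0.053 to 0.080). With the control level as a block the change against wt was -0.23 ± 0.12 (adjusted p 0.31), and the call against 3aKO was lost too.

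In 3bKI Lpcat3 was lowest in the same 2 arrays in which Chka was highest. Xist-high arrays 1 and 3, which also stood apart in hybridization control level and RNA integrity as given above, were at 10.84 and 10.75, below all wt arrays, and arrays 2, 4 and 5 at 11.17, 11.37 and 11.35, within the wt range of 11.09 to 11.58. The mean change of -0.20 ± 0.09 against wt did not pass (adjusted p 0.072), but passed without wt array 11 (-0.22, adjusted p 0.049) or 3bKI array 4 (-0.27, adjusted p 0.020) or 5 (-0.27, adjusted p 0.024). It was -0.56 ± 0.10 in Xist-high and 0.04 ± 0.09 in Y-linked arrays, with a difference of -0.60 ± 0.14 (limma interaction, adjusted p 0.025, with 0.923% of all genes called). This test was added after the split had been seen and rests on 2 Xist-high 3bKI arrays. Against 3aKO the difference was -0.48 ± 0.14 and did not pass (adjusted p 0.11, with 0.786% of all genes called). In 1KI the changes of Lpcat3 were -0.28 ± 0.10 and -0.21 ± 0.09, with a difference of -0.06 ± 0.14 (adjusted p 0.97, with 0.0220% of all genes called).

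Gdpd3, a glycerophosphodiester phosphodiesterase family member known to release lysophosphatidic acid from lysophospholipids, had the largest change of the 9. In wt, 11 of 12 arrays lay between 10.41 and 11.02, and array 11 was at 5.28. The 3aKO arrays ran from 9.90 through 10.74 to 11.18. Of the 1KI arrays 8 lay between 4.37 and 5.29, and arrays 2 and 6 were at 7.90 and 6.97. All 1KI arrays were thus below all 3aKO arrays, and below all wt arrays but number 11.

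The Gdpd3 level in 1KI was 4.92 ± 0.47 lower than in wt (30.4-fold), and the change was -5.38 ± 0.28 without wt array 11. The low values were under the array medians, and the files hold no detection calls, so a lower bound on the level is not known. The same probe set varied most within 3bKI, with arrays at 10.38, 7.76, 9.37, 7.98 and 4.82 where 11 wt arrays lay between 10.34 and 10.96. The change was -2.21 ± 0.69, and -1.40 ± 0.65 without array 5. The 2 highest 3bKI arrays were again the Xist-high ones, and the changes against wt in Xist-high and Y-linked arrays differed by 2.21 ± 1.25. The genes beside Gdpd3 on chromosome 7 did not pass in 1KI against wt, with -0.30 ± 0.16 for Coro1a (adjusted p 0.17) and 0.23 ± 0.10 for Ypel3 (adjusted p 0.084). In 3bKI against wt Ypel3 rose by 0.37 ± 0.11 (adjusted p 0.011), while 0.45 ± 0.18 for Coro1a did not pass (adjusted p 0.063).

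Over the 32 arrays of the first normalization, deviations of Gdpd3 from the genotype means ran most strongly against those of Yae1d1, a gene on chromosome 13, among 9096 genes above the median signal. Pearson's r was -0.91 and Spearman's rho -0.76, and r was -0.71 without 1KI array 2 and wt array 11. Here and below, correlations without some arrays used deviations from genotype means that still included those arrays. 1KI array 6 also stayed in, and r for Yae1d1 without it was not computed, so how far the link rests on these few arrays is not known. Wt array 11 had Yae1d1 at 8.46 where the other wt arrays had 6.98 to 7.42, and 1KI arrays 2 and 6 were the lowest of their group at 7.92 and 8.06 against 8.60 to 8.81. In 3bKI, Yae1d1 was at 8.68 to 8.99 in all 5 arrays, the Gdpd3 array at 10.38 included. The genes most like Gdpd3 were Pde9a (r = 0.63), Rnf41 (0.60) and Lhpp (0.59). These fell to 0.28, 0.26 and 0.47 without 1KI array 2 and wt array 11. No p is given for such correlations, since the arrays share genotype, sex and control level and the genes were picked as extremes.

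**Figure D3:**
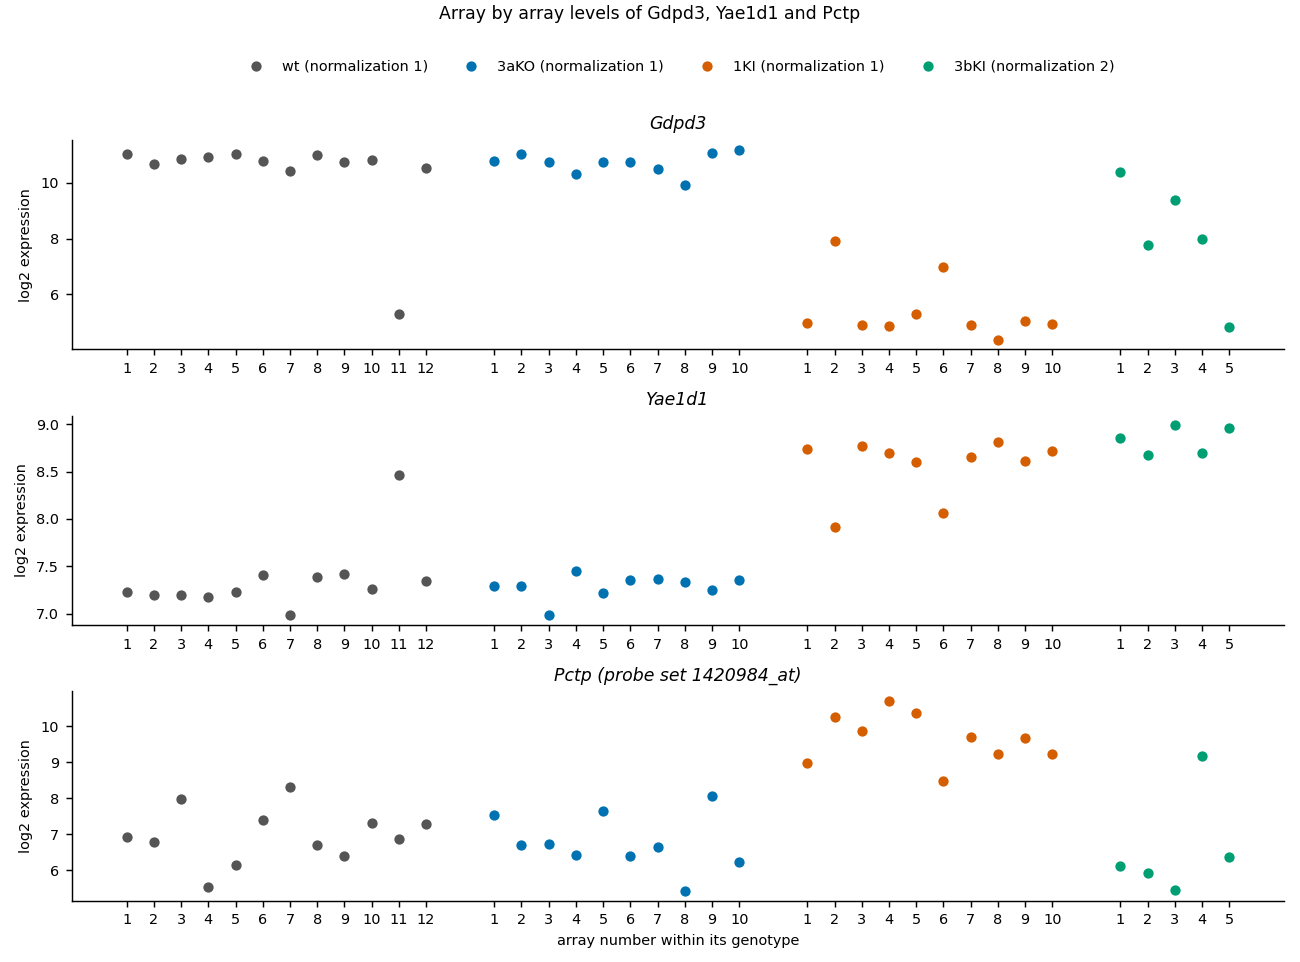
Log2 expression of Gdpd3, Yae1d1 and Pctp (probe set 1420984_at) on the vertical axis for each array, by array number within its genotype. Wt, 3aKO and 1KI are from normalization 1 and 3bKI from normalization 2. Wt array 11 has Gdpd3 at 5.28 and Yae1d1 at 8.46, and 3bKI array 4 has Pctp at 9.16.

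Pctp, the cytosolic protein that carries phosphatidylcholine between membranes, was higher in 1KI. At probe set 1420984_at, wt ranged from 5.55 through 6.91 to 8.31, 3aKO from 5.43 through 6.68 to 8.07 and 1KI from 8.47 through 9.68 to 10.70. All 10 1KI arrays lay above all 12 wt and all 10 3aKO arrays. The change was 2.67 ± 0.30 against wt (6.37-fold) and 2.86 ± 0.31 against 3aKO, and with the control level as a block it was 2.78 ± 0.54 against wt. At the other probe set, 1420983_at, the change was 1.71 ± 0.23, with 9 of 10 arrays above all wt arrays and array 6 below them at 6.33.

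In 3bKI Pctp was high in 1 of 5 arrays. The probe set with the highest mean in the second normalization was 1420983_at, where wt ran from 6.39 through 6.83 to 7.57 and the 3bKI arrays were at 6.66, 6.78, 6.68, 9.01 and 6.98. Array 4 was also the high one at 1420984_at, with 9.16 against 5.47 to 6.38 in the other 4. The change was 0.34 ± 0.26 against wt at the first probe set and -0.27 ± 0.45 at the other. Without array 4 the first became -0.10 ± 0.19. The effects of the 2 knock-ins were not tested against each other.

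The Pctp level also varied within genotypes, from 5.55 to 8.31 in wt alone. Of 9096 genes the most like it over 32 arrays were Slc22a5, a carnitine transporter (r = 0.79, rho = 0.76), Cpt2, a mitochondrial carnitine palmitoyltransferase (r = 0.77, rho = 0.69), and Cyp4a14, a fatty acid hydroxylase (r = 0.74, rho = 0.67). Leaving out 3aKO array 9 and wt array 7 gave r of 0.79, 0.73 and 0.76. None of the 3 rose with Pctp in 1KI against wt, where Slc22a5 changed by 0.04 ± 0.09 (adjusted p 0.76), Cpt2 by 0.01 ± 0.06 (adjusted p 0.90) and Cyp4a14 by -0.72 ± 0.50 (adjusted p 0.29).

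**Figure D4:**
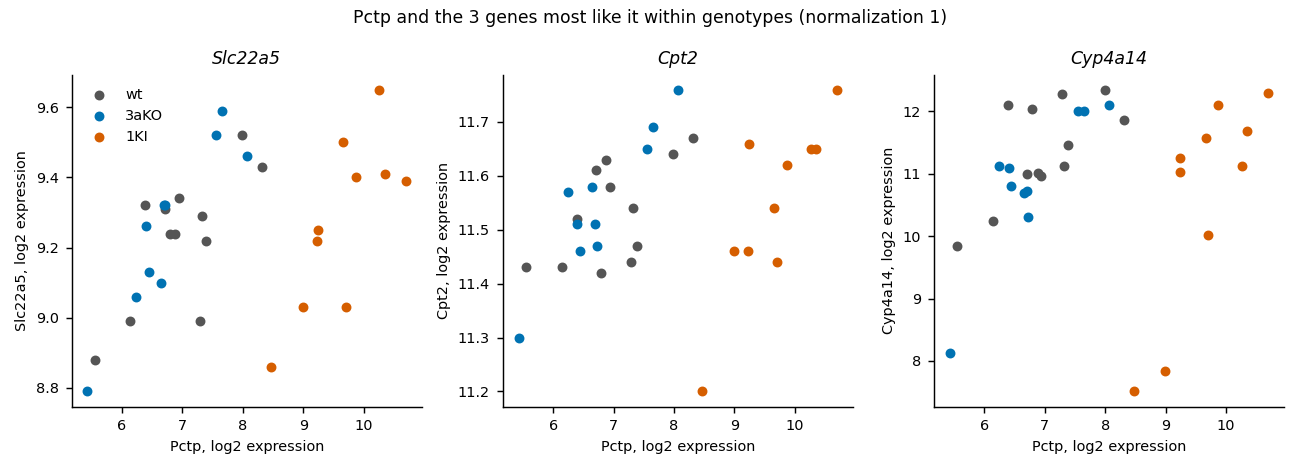
Pctp (horizontal axis, log2 expression) against Slc22a5, Cpt2 and Cyp4a14 (vertical axes, log2 expression) in the 32 arrays of normalization 1, coloured by genotype. The 1KI arrays lie to the right, at 8.47 to 10.70 for Pctp, while Slc22a5 runs from 8.86 to 9.65 in them and from 8.88 to 9.52 in wt.

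Pltp, the secreted protein that moves phospholipids onto high-density lipoproteins in plasma, was higher in both knock-ins. Wt ranged from 8.89 through 9.14 to 10.04, 3aKO from 8.87 through 9.13 to 9.30 and 1KI from 9.58 through 10.63 to 11.41, and 9 of 10 1KI arrays lay above all wt arrays. In the second normalization wt ran from 8.77 to 9.93 and the 3bKI arrays were at 9.51, 9.88, 9.87, 9.79 and 10.80, so 1 of 5 lay above all wt arrays and all 5 lay above all 3aKO arrays. The change against wt was 1.40 ± 0.16 in 1KI (2.64-fold) and 0.83 ± 0.16 in 3bKI (1.77-fold). The highest wt arrays were numbers 1, 2 and 3, the first 2 being those with bright hybridization controls. With that level as a block the changes were 1.02 ± 0.29 and 0.44 ± 0.24.

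Both Pltp probe sets were higher, the second by 1.24 ± 0.20 in 1KI and 1.00 ± 0.19 in 3bKI. Macrophages also make Pltp. Of 8 macrophage and Kupffer cell markers 0 rose and 0 fell in 1KI against wt, where 27.6% of all genes were called. In 3bKI against wt 1 rose and 0 fell, where 29.2% were called. Against 3aKO 0 rose, and 4 fell in 1KI and 1 in 3bKI, where 31.0% and 34.2% were called. The mean of these markers per array ran from 8.49 to 10.03 in 1KI and from 8.92 to 9.35 in wt, and their part in the result was not tested. In bulk liver a change of cell number and one of RNA per cell cannot be told apart. The gene 4930445K14Rik beside Pltp on chromosome 2, named after its values were seen, rose by 0.72 ± 0.08 in 1KI (adjusted p 5.6e-08) and by 0.66 ± 0.09 in 3bKI (adjusted p 2.6e-06), while Ctsa on the other side changed by 0.04 ± 0.04 and -0.01 ± 0.06. Most like Pltp within genotypes were Rcc1 (r = 0.72, rho = 0.48), Tmem222 (0.66, 0.64) and Ehhadh (0.59, 0.50). Without wt array 3 and 1KI array 1 their r was 0.76, 0.60 and 0.42.

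For Chka the most like genes over the 27 arrays of the second normalization were Arcn1 (r = 0.84, rho = 0.73), Eif2ak3, a kinase of the unfolded protein response (0.79, 0.79), and Nfil3, a clock output repressor (0.78, 0.74). Nfil3 also rose in 3bKI against wt, by 0.66 ± 0.24 (adjusted p 0.034). Fgfrl1 ran most strongly against Chka (r = -0.88). Leaving out 3bKI arrays 2 and 4 left r between 0.72 and 0.76 for the first 3. The Xist-high 3bKI arrays 1 and 3, with Chka at 10.17 and 10.08, stayed in, and r without them was not computed. The 9 genes themselves did not vary as 1 unit, with pairwise r between -0.67 (Chka and Lpcat3, 27 arrays) and 0.81 (Pcyt1a and Pemt, 32 arrays), and the latter was 0.31 without 1KI array 6.

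**Figure D5:**
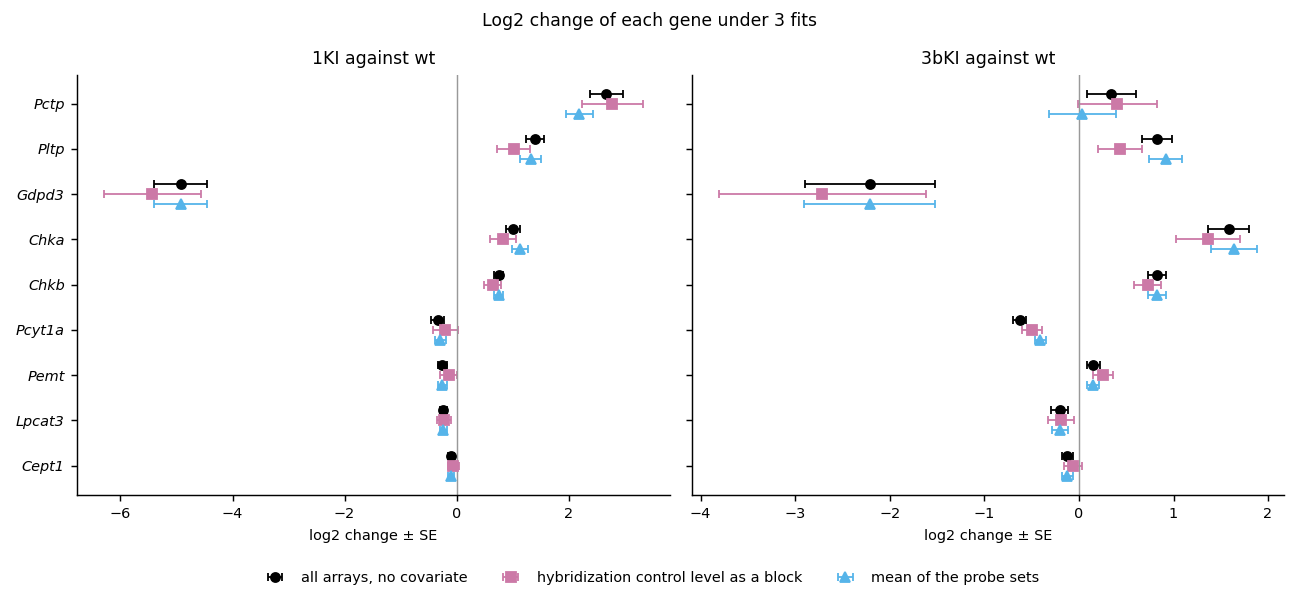
Log2 change with its SE on the horizontal axis for the 9 genes, in 1KI against wt (left) and 3bKI against wt (right), under the fit with no covariate, blocked on the hybridization control level and with the mean of a gene's probe sets. Chkb and Chka stay above 0 and Gdpd3 below it in both panels under all 3 fits.

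The counts of the pathway lists stand beside the shares of all genes called, 10.2% upwards and 17.5% downwards in 1KI and 13.4% and 15.9% in 3bKI against wt. The lists were chosen with earlier results of these data known, so their counts and adjusted p-values are a description and not independent tests. The other enzymes of the CDP-choline and CDP-ethanolamine routes had 4 of 13 genes rise and 0 fall in 1KI against wt, with a list median of -0.05 against -0.05 over all genes. Pcyt2, which makes CDP-ethanolamine in the ethanolamine branch, rose by 0.59 ± 0.06 (adjusted p 2.8e-08) with no overlap between the groups. The lipins Lpin1, Lpin2 and Lpin3, which make the diacylglycerol used in the last step, rose by 1.29 ± 0.24, 0.62 ± 0.12 and 0.20 ± 0.08. In 3bKI 2 of 13 rose and 3 fell. Pcyt2 rose by 0.46 ± 0.07 (adjusted p 1.4e-05) and Lpin3 by 0.62 ± 0.09, while Lpin2 fell by 0.44 ± 0.14 and the choline transporter-like Slc44a2 by 0.42 ± 0.13.

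Of 11 genes of methyl group supply and choline oxidation, 1 rose in 1KI, Sardh, the sarcosine dehydrogenase, by 0.24 ± 0.08 (adjusted p 0.030). In 3bKI 3 rose and 3 fell. Cbs, which draws homocysteine out of the methionine cycle, rose by 0.77 ± 0.14, and Chdh, the choline dehydrogenase, fell by 0.51 ± 0.09. Ahcy, which clears S-adenosylhomocysteine, fell by 0.23 ± 0.04, and Mat1a, which makes S-adenosylmethionine, fell by 0.28 ± 0.06.

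Among 15 acyltransferases 0 rose and 3 fell in 1KI against wt, led by Gpat3, a glycerol-3-phosphate acyltransferase, which fell by 0.82 ± 0.14 (adjusted p 4.7e-05), and Gpam, the mitochondrial one, which fell by 0.29 ± 0.07. In 3bKI 3 rose and 5 fell. Agpat2 rose by 0.49 ± 0.09 and Mboat7, which acylates lysophosphatidylinositol, by 0.27 ± 0.05, and Gpam fell by 0.42 ± 0.09 and Lpgat1 by 0.36 ± 0.08.

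Of 18 genes of phosphatidylcholine and glycerophosphodiester breakdown, 2 rose and 6 fell in 1KI, and 3 rose and 4 fell in 3bKI, or 8 and 7 of 18 where 27.6% and 29.2% of all genes were called. Pnpla6, a phospholipase that degrades phosphatidylcholine to glycerophosphocholine, rose by 0.68 ± 0.08 in 1KI (adjusted p 4.3e-08) and by 0.46 ± 0.07 in 3bKI (adjusted p 2e-05), and its groups lay apart in both. Gdpd1, of the same family as Gdpd3, fell by 0.38 ± 0.08 and 0.59 ± 0.10. Pnpla8 fell by 0.24 ± 0.06 and 0.44 ± 0.07, and Lypla2 rose by 0.23 ± 0.05 and 0.16 ± 0.05.

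Transfer and export had 16 genes measured beside Pctp and Pltp. In 1KI against wt 2 rose, among them Stard10, a phosphatidylcholine transfer protein of the Pctp family, by 0.20 ± 0.04 (adjusted p 0.00045), and the lipase Lipg by 0.49 ± 0.12. Another 4 fell, led by the cholesterol carrier Stard4 by 0.44 ± 0.07. In 3bKI 2 rose and 8 fell. Apob, the structural protein of very-low-density lipoproteins, fell by 1.97 ± 0.11 (adjusted p 2.4e-13), Abca1, which loads phospholipid on apolipoprotein A-I, by 0.48 ± 0.05, Stard5 by 0.52 ± 0.07 and Stard7, a mitochondrial phosphatidylcholine carrier, by 0.43 ± 0.06. Apob was also 1 of the 2 list genes called in 3aKO against wt, where it fell by 0.88 ± 0.05 (adjusted p 9.2e-15).

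Of 10 genes of other phospholipid classes 5 fell and 1 rose in 1KI, and 5 fell and 2 rose in 3bKI, with list medians of -0.19 and -0.23 against -0.05 and 0.00 over all genes. Ptdss1, a phosphatidylserine synthase, fell by 0.38 ± 0.05 and 0.59 ± 0.07. Cds2, which makes CDP-diacylglycerol, fell by 0.27 ± 0.08 and 0.81 ± 0.08, and Sgms2, a sphingomyelin synthase that uses phosphatidylcholine, by 0.65 ± 0.14 in 1KI and 0.48 ± 0.18 in 3bKI. Pgs1, of cardiolipin synthesis, rose by 0.31 ± 0.06 and 0.24 ± 0.07.

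Of 12 lipid-sensing transcription factors 5 rose and 1 fell in 1KI, where 10.2% and 17.5% of all genes did, and 5 rose and 2 fell in 3bKI, where 13.4% and 15.9% did. Mlxipl, whose product ChREBP responds to glucose, rose by 1.32 ± 0.13 (adjusted p 3.1e-09) and 1.03 ± 0.15 (adjusted p 4e-06). Srebf2, the sterol factor SREBP-2, rose by 0.52 ± 0.08 and 0.42 ± 0.09. Nr1h3, which encodes LXR alpha, rose by 0.24 ± 0.06 in 3bKI, with no overlap between the groups, and Nr1h4, the bile acid receptor, fell there by 0.33 ± 0.06. In 3aKO against wt 1 of the 12 passed, the coactivator Ppargc1a, which rose by 1.12 ± 0.16 (adjusted p 0.00030). Against 3aKO the lists gave 4 rises and 1 fall of 13, 1 and 1 of 11, 2 and 4 of 15, 2 and 4 of 18, 5 and 4 of 16, 1 and 5 of 10 and 5 and 2 of 12 in 1KI, in the order given above. In 3bKI the same lists gave 2 and 3, 2 and 3, 3 and 5, 3 and 4, 3 and 7, 2 and 5, and 4 and 3.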

How the data were processed

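Per the labels, each sample was total liver RNA on an Affymetrix mouse array. The authors deposited log2 values that they had normalized in 2 runs, per the labels. The normalization method was not given in the labels, and base 2 was inferred from a value range of 2.13 to 15.06. The 59 columns hold 37 arrays, of which 22 are in both runs. Of 45101 probe sets, 34945 had 1 gene symbol, 932 several (1 of them naming a member, left out) and 9160 none, and 64 were controls. A gene was its probe set with the highest mean (18193 genes). Depth does not apply to arrays, and their number limits the precision.

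Each run was fitted whole with limma 3.58.1 (R 4.3.3, lmFit and plain eBayes), with Benjamini-Hochberg adjustment over all genes at 0.05, and the fit was tested on simulated data. The labels do not say that arrays came from separate animals, so p-values measure the spread between samples, which may be technical. The members and gene lists were chosen with earlier results of these data known. The genes named were all members with every probe set, up to 4 called genes with the smallest p per list and comparison, and the 3 genes most correlated with Pctp, Pltp, Gdpd3 or Chka. Alternatives were the groups compared alone, a trend, a signal filter, other probe set choices, quantile normalization, equal medians, array weights, control level, sex index, RNA integrity, a replicate block and leaving out each array. RNA integrity without 1KI array 6 and the split by sex marker were added after seeing the data. The genes Etnk2, Gdpd4, Enpp2, Lipc and Nr1h2 of the lists were not tested here. Sequences are from RefSeq (GRCm38.p6).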

Additional observations from a re-analysis of the deposited data

Results flagged for a closer look

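The change of Lpcat3 in 3bKI against wt differed by -0.60 on the log2 scale between Xist-high and Y-linked arrays, by a test of the difference itself (limma interaction, adjusted p 0.025). The test was added after the split had been seen, and the 2 Xist-high of the 5 3bKI arrays also stood apart in hybridization control level and RNA integrity.

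Single arrays stood far from the others of their group, by Dixon's criterion, 10 times in 48 groups of values tested, where chance gives about 1 in 20. In 5 of these the array was 1KI array 6, the one with the largest 3' minus 5' difference. It was lowest for Pctp at 1420983_at (6.33, next 8.36), for Pcyt1a at 1424453_at (6.24, next 8.64), at 1438011_at (8.30, next 9.68) and at 1450434_s_at (8.70, next 9.01), and for Pemt (11.21, next 12.03). 3bKI array 4 was highest for Pctp at both probe sets, 9.01 where the next was 6.98 and 9.16 where the next was 6.38. 3bKI array 5 was highest for Pltp at 1456424_s_at (10.80, next 9.88). 3bKI array 1 was lowest for Pcyt1a at 1450434_s_at (8.84, next 9.05), and 3aKO array 3 highest there (9.51, next 9.28). Groups of over 10 arrays were not tested this way, so wt array 11, at 5.28 for Gdpd3, is not among these.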

How the results depend on the processing

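The count of tested members called was 0 of 9 in 3aKO against wt under every alternative run, and 2 of 5 in 3bKI against wt with no change over 1.5 times. In 1KI against wt it was 4 and became 1 when blocked on the hybridization control level, alone or with a sex index. In 1KI against 3aKO it was 2, and became 1 in the 2 compared groups alone, after a further quantile normalization, with equal array medians and with the control level as a block, 0 with that block and a sex index, and 4 with RNA integrity as a covariate. It was between 1 and 2 when single arrays were left out, 1 each time on leaving out 3aKO arrays 3, 5 or 7 or 1KI arrays 2, 4 or 6. In 3bKI against 3aKO it was 3, and became 1 with the control level as a block, alone or with a sex index, and 0 with RNA integrity, a fit that called 116 genes in all. The Chkb rise kept its call in 1KI and 3bKI against wt under every alternative, and lost it in 1KI against 3aKO with the control level and a sex index (0.63, adjusted p 0.056) and in 3bKI against 3aKO with RNA integrity (0.82, adjusted p 0.084). With single arrays left out, Pctp in 3bKI ran from -0.10 to 0.49 against wt and from -0.014 to 0.57 against 3aKO, lowest without array 4. Pemt in 3bKI against 3aKO turned to -0.062 with RNA integrity, where Gdpd3 moved to -4.92. Over all genes the control level block called 782, 417, 1583 and 1232 genes in 1KI against wt and 3aKO and 3bKI against wt and 3aKO, where 5026, 5636, 5318 and 6218 were called without it, and in 3aKO against wt 15 where 32 were. RNA integrity called 605 in 3bKI against wt, and 48 in 3aKO against wt, and the replicate block 14 there. The cause was not tested. Of the values of single members under alternatives, 1468 were classed as unchanged, 35 lost their call and 14 gained one. Another 3 were classed as reversed and 1 as moved beyond its spread. Changes of sign in values that did not pass were not all classed as reversed. In 3aKO against wt, for example, the replicate block turned Chka from -0.0068 to 0.093 and Gdpd3 from 0.36 to -0.12. Same-numbered arrays did not all vary together across genotypes (correlation over 0.1 in 6, 4 and 7 of 10 numbers in normalization 1 and in 2 and 1 of 5 with 3bKI), so they were not treated as pairs. The numbers carry sex in part, since 3aKO and 1KI arrays 1 to 5 were Xist-high and 6 to 10 Y-linked, and the median correlation of same-numbered 3aKO and 1KI arrays was 0.24 against -0.02 for other numbers. The replicate block left the count of members called at 0 in 3aKO, and Pcyt1a in 1KI against wt was -0.31 (adjusted p 0.087) and Pemt in 3bKI against 3aKO 0.17 (adjusted p 0.058) under it.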
